A study of Bos taurus with 16 samples.

Results

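The genes COL1A1, COL1A2, COL3A1 and SPARC were followed in the prefrontal cortex (PFC) of Lidia bulls. They are 4 named genes of the 27607 genes listed in the deposited tables, chosen by identifier. The choice was made with earlier results of these data known, and the study had called all 4 lower in adults. COL1A1 (ENSBTAG00000013103) lies on the plus strand of chr19:36457658-36474513, COL1A2 (ENSBTAG00000013472) on the plus strand of chr4:11776554-11812997, COL3A1 (ENSBTAG00000021466) on the minus strand of chr2:7375289-7414912 and SPARC (ENSBTAG00000014835) on the minus strand of chr7:62874446-62897221, in the ARS-UCD1.2 assembly. The questions were whether SPARC follows the collagens from bull to bull or stays apart, and in which ratios the collagen chains are expressed.

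The young group held 8 bulls aged 3 years and the adult group 8 bulls aged 4 years. All were non-castrated males of the Lidia breed of cattle, raised for its fighting response. Every animal had been incited in a bullring shortly before slaughter, so both ages share that exposure, and the study placed the animals in batches by age and by their lineage, Santa Coloma-Albaserrada or Domecq. The tables of adult bulls 6 and 8 were identical to each other and listed 0 for every transcript, so that 8 young and 6 adult bulls had values, and each is a separate animal.

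Fibrillar collagens give tissues tensile strength. Type I collagen is a trimer that joins a pair of α1 chains, the product of COL1A1, to a single α2 chain, the product of COL1A2, whereas type III collagen is built of identical chains made from COL3A1 and is often found in the same fibrils. SPARC encodes osteonectin, a secreted glycoprotein that binds collagen and influences fibril assembly. In the brain, fibrillar collagens are made mainly by fibroblasts of the meninges and of the sheaths of larger vessels, while SPARC is also made by glia and by vascular cells.

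Levels are given as FPKM, a count of sequenced fragments scaled to transcript length and to the mapped fragments of the library, so that genes can be compared with each other. They were summed over the transcripts of a gene and rescaled between bulls by the median ratio over the genes above 0 in all 14 bulls with values. Summed over all transcripts, read coverage was 1.09 to 2.46 gigabases per young bull and 0.263 to 2.31 gigabases per adult bull, the least being that of adult bull 4. Neuronal and astrocyte genes were present in every bull, from 11.4 to 68.5 FPKM for PVALB, the calcium-binding protein parvalbumin of interneurons, and from 20.2 to 83.8 for the water channel AQP4. All 4 genes were above 0 in all 14 bulls and were thus among the 15273 genes tested.

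SPARC was expressed far above the collagens. Its mean over the 14 bulls was 149 FPKM ± 56.2 (SD, n = 14), higher than that of 99.1% of the tested genes. COL1A2 averaged 3.54 FPKM ± 3.16 (SD, n = 14), higher than 54.9% of the tested genes, COL3A1 1.87 ± 1.76 and COL1A1 1.51 ± 1.2. The highest bull exceeded the lowest by 5.41-fold for SPARC, against 19.0-fold for COL1A1, 38.5-fold for COL1A2 and 37.0-fold for COL3A1.

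COL1A1, the α1 chain of type I collagen, stood at 1.05, 1.84, 3.63, 3.24, 3.03, 0.786, 1.31 and 1.05 FPKM in young bulls 1 to 8 and at 1.21, 2.88, 0.191, 0.213, 0.450 and 0.337 FPKM in adult bulls 1, 2, 3, 4, 5 and 7. The ages overlapped, since adult bulls 1 and 2 lay within the young range, while the other 4 of 6 adult bulls lay below the lowest young bull. COL1A2, the α2 chain, had levels of 1.63, 5.26, 8.20, 7.5, 9.27, 1.23, 2.7 and 2.81 FPKM in young bulls 1 to 8 and of 2.66, 6.36, 0.241, 0.778, 0.683 and 0.257 FPKM in the same order of adult bulls. Again adult bulls 1 and 2 fell among the young bulls and 4 of 6 fell below all of them.

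COL3A1, the chain of type III collagen, showed the same division. Its levels were 0.885, 2.62, 3.71, 3.41, 6.27, 0.982, 0.873 and 1.54 FPKM in young bulls 1 to 8 and 1.95, 2.99, 0.195, 0.298, 0.340 and 0.170 FPKM in adult bulls 1, 2, 3, 4, 5 and 7, with 4 of 6 adult bulls below the lowest young bull. SPARC reached 108, 132, 206, 170, 266, 226, 138 and 172 FPKM in young bulls 1 to 8 and 143, 154, 49.1, 122, 115 and 92.2 FPKM in the 6 adult bulls. Here 2 of 6 adult bulls lay below the lowest young bull, adult bulls 3 and 7, and all 6 lay below the young median of 171 FPKM. Young bull 6 separated the genes most plainly, with the lowest COL1A1 and COL1A2 of the young bulls and the second highest SPARC.

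**Figure D1:**
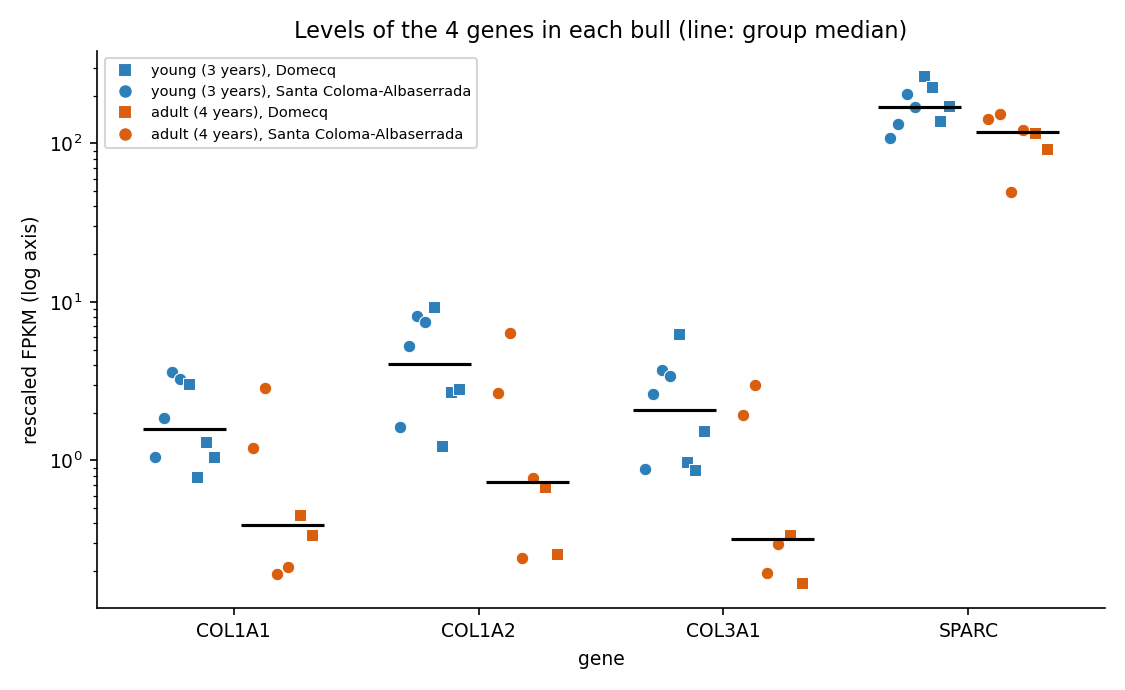
Rescaled FPKM of COL1A1, COL1A2, COL3A1 and SPARC (log axis) in each of the 8 young and 6 adult bulls with values, with squares for Domecq, circles for Santa Coloma-Albaserrada and a black line at each group's median. For each collagen gene 4 of 6 adult bulls sit below every young bull and 2 among them, while the SPARC points span 5.41-fold in all.

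The comparison between ages asked whether the 4 genes differed between bulls of 3 and 4 years. The study's batches followed age as well as lineage, so age and batch cannot be told apart here, nor within a lineage. Mean COL1A1 was 1.99 FPKM ± 1.14 (SD, n = 8) in young and 0.879 ± 1.05 (SD, n = 6) in adult bulls, a log2 difference of -1.46 (SE 0.51) on the log2(FPKM + 0.1) scale and an exact permutation p of 0.0293 over 3003 divisions. Mean COL1A2 was 4.83 ± 3.17 in young and 1.83 ± 2.39 in adult bulls, with a log2 difference of -1.89 (SE 0.65, exact permutation p = 0.0280). COL3A1 had means of 2.54 ± 1.89 and 0.989 ± 1.19, with a log2 difference of -1.66 (SE 0.60, exact permutation p = 0.0336), and SPARC means of 177 ± 52.8 and 112 ± 37.8, with a log2 difference of -0.69 (SE 0.25, exact permutation p = 0.0216). All permutation tests were two-sided. With a pseudocount of 1 FPKM the log2 differences were -0.73 for COL1A1, -1.17 for COL1A2, -0.85 for COL3A1 and -0.68 for SPARC, so that COL1A1 and SPARC lay close together on that scale.

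Thus 4 of 4 genes were lower in adults at an unadjusted exact p under 0.05, as were 5.37% of all tested genes. With limma, 4 of 4 were lower at an unadjusted p under 0.05, beside 5.59% of all tested genes. The study had called all 4 genes lower in adults on these same bulls. Both counts were thus largely fixed beforehand, and nothing is read from them. After Benjamini-Hochberg adjustment over all 15273 genes, limma called 0 of 4, with adjusted p values of 0.411 for COL1A1 and COL1A2, 0.425 for COL3A1 and 0.435 for SPARC, and it called 0% of all tested genes, although 1390 genes had an unadjusted p under 0.05. Weighting the bulls by their quality in limma called 173 genes, none of them among these 4, whose adjusted p then ran from 0.0512 for COL1A2 to 0.131 for SPARC, within a range of 0.0512 to 1.00 over all alternatives. In bulk tissue, fewer cells of a type and less RNA per cell cannot be told apart.

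The unadjusted calls rested on single bulls. Leaving out each bull in turn kept every difference negative, but the exact permutation p passed 0.05 for COL1A1 without adult bull 3, 4 or 7, for COL1A2 without adult bull 3 or 7, for SPARC without adult bull 3 and for COL3A1 without any of young bulls 2 to 5 or adult bulls 3, 4, 5 and 7, with p reaching at most 0.0746. Adult bull 4 had few reads, since its coverage of COL1A1 equals 3.69 pairs of 100-base reads, that of COL3A1 5.78 and that of COL1A2 13.7, against 942 for SPARC.

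Both lineages had lower adult means for each gene. Among Domecq bulls, 4 young against 2 adult, the log2 differences were -1.57 for COL1A1, -2.59 for COL1A2, -2.40 for COL3A1 and -0.91 for SPARC, with exact permutation p values from 0.0667 to 0.133, where 0.0667 is the smallest this design allows. Among Santa Coloma-Albaserrada bulls, 4 against 4, they were -1.57, -1.69, -1.40 and -0.48 in the same order, with exact permutation p values from 0.171 to 0.343 and a smallest possible value of 0.0286. The difference between lineages in the age effect did not pass limma for any of the 4 genes, with adjusted p values from 0.864 to 0.999.

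The ratio of the type I chains was examined within each bull, where rescaling cancels. COL1A1/COL1A2 was 0.643, 0.350, 0.442, 0.432, 0.327, 0.637, 0.483 and 0.373 in young bulls 1 to 8 and 0.453, 0.453, 0.791, 0.274, 0.659 and 1.31 in adult bulls 1, 2, 3, 4, 5 and 7. The α2 transcript exceeded the α1 transcript in 13 of 14 bulls, with a median ratio of 0.453, and the exception, adult bull 7, had COL1A1 at 0.337 and COL1A2 at 0.257 FPKM. An exact two-sided sign-flip test of the mean log2 ratio, added after the values had been seen, gave p = 3.66e-04, or 4.39e-04 after adjustment over 6 ratios. This test measures only how steadily the FPKM ratio departs from 1 between bulls. It cannot tell a difference in transcript number from a constant bias of FPKM between genes, which was not tested. In the assembled type I trimer α1 outnumbers α2, whereas on the FPKM scale the order of the transcripts was the other way round.

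COL3A1 lay between the type I chains. COL3A1/COL1A2 ranged from 0.323 in young bull 7 to 0.808 in adult bull 3, was below 1 in 14 of 14 bulls and had a median of 0.521 (exact sign-flip p = 1.22e-04, the smallest 16384 sign patterns can give). COL3A1/COL1A1 ranged from 0.504 in adult bull 7 to 2.07 in young bull 5 and was above 1 in 10 of 14 bulls, with a geometric mean of 1.08 and an SD of 0.54 on the log2 scale, a difference from 1 that did not pass the exact sign-flip test (p = 0.450). COL3A1 and COL1A1 are thus neighbours in the order of levels that did not differ beyond their spread, whereas COL1A2 was above both and SPARC above all 3 in every bull except for the single reversal of COL1A1 and COL1A2.

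**Figure D2:**
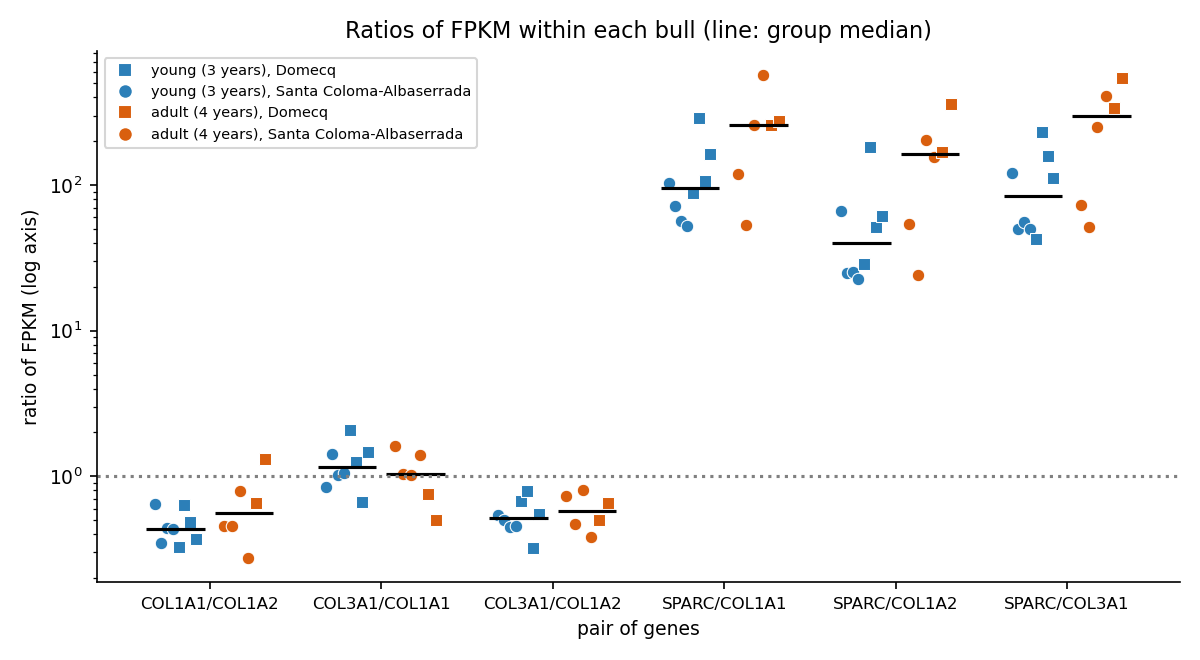
Ratio of FPKM between each pair of the 4 genes within each bull (log axis), by age and lineage, with a black line at each group's median and a dotted line at a ratio of 1. The collagen ratios sit between 0.274 and 2.07, and the ratios of SPARC to the collagens between 22.6 and 570. The values 0.274 and 570 are those of adult bull 4, whose COL1A1 coverage equals 3.69 read pairs.

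The collagen ratios differed little with age in comparison with their spread. The adult minus young log2 difference was 0.38 (SE 0.34) for COL1A1/COL1A2, -0.24 (SE 0.31) for COL3A1/COL1A1 and 0.14 (SE 0.22) for COL3A1/COL1A2, with exact permutation p values of 0.257, 0.443 and 0.528 and adjusted values over 6 ratios of 0.386, 0.528 and 0.528. With 1 bull left out at a time they ranged from 0.14 to 0.59, from -0.38 to -0.04 and from 0.04 to 0.25. For COL1A1/COL1A2 the log2 difference was 1.08 in Domecq, where the exact permutation p of 0.0667 is the smallest possible, and 0.01 in Santa Coloma-Albaserrada (exact permutation p = 0.943). COL3A1/COL1A1 differed in sign between lineages, with -1.03 in Domecq (exact permutation p = 0.267) and 0.22 in Santa Coloma-Albaserrada (exact permutation p = 0.457), and COL3A1/COL1A2 had 0.04 and 0.23 (exact permutation p = 1.00 and 0.371). These differences between lineages were not tested.

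SPARC exceeded each collagen in 14 of 14 bulls, by a median of 112-fold for COL1A1, 57.3-fold for COL1A2 and 117-fold for COL3A1. The ratio SPARC/COL1A2 was 66.1, 25, 25.1, 22.6, 28.6, 184, 51.1 and 61.1 in young bulls 1 to 8 and 53.6, 24.2, 203, 156, 169 and 358 in adult bulls 1, 2, 3, 4, 5 and 7. The ratio was lowest in the bulls with most COL1A2, its own denominator, and highest in those with least, and young bull 6 stood among the 4 low adult bulls. The geometric mean of SPARC/COL1A2 was 44.5 in young and 117 in adult bulls, a log2 difference of 1.39 (SE 0.69, exact permutation p = 0.0643), that of SPARC/COL1A1 99.4 and 201 (1.01, SE 0.56, p = 0.0809) and that of SPARC/COL3A1 85.7 and 204 (1.25, SE 0.66, p = 0.0689). The adjusted value over 6 ratios was 0.162 for each, so an age difference in these ratios was not shown. Without adult bull 2, whose collagens were the highest of the adults, the difference was 1.84 for SPARC/COL1A2, 1.39 for SPARC/COL1A1 and 1.65 for SPARC/COL3A1, each with an adjusted exact permutation p of 0.0404. With a pseudocount of 1 FPKM added before the ratio, the differences were 0.49, 0.04 and 0.17 in the same order, with adjusted exact permutation p values of 0.467, 0.879 and 0.712.

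The 3 collagen genes moved together from bull to bull. Over 14 bulls, on the log2(FPKM + 0.1) scale, Pearson's r was 0.963 between COL1A1 and COL1A2 (Spearman's rho 0.960), 0.953 between COL3A1 and COL1A1 (rho 0.925) and 0.974 between COL3A1 and COL1A2 (rho 0.952). The permutation p was 1e-05 for each r, the smallest that 100000 pairings can give, and at most 2e-05 for each rho, with adjusted values over 6 pairs of 2e-05 and 4e-05. Leaving out the 2 bulls farthest from the median gave r of 0.977, 0.960 and 0.968. The relation was present within each age, with r of 0.962, 0.891 and 0.938 among the 8 young bulls (exact permutation p = 5.21e-04, 0.00697 and 0.00176) and of 0.931, 0.953 and 0.976 among the 6 adult bulls (exact permutation p = 0.0111, 0.00972 and 0.00556). Within the lineages, 6 Domecq and 8 Santa Coloma-Albaserrada bulls of both ages, r ran from 0.961 to 0.984.

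SPARC followed the collagens more loosely. Its r was 0.718 with COL1A1 (rho 0.692), 0.758 with COL1A2 (rho 0.767) and 0.769 with COL3A1 (rho 0.802), with permutation p values of 0.00256, 0.00110 and 7.70e-04 for r and of 0.00812, 0.00223 and 0.00114 for rho, and adjusted values over 6 pairs of 0.00256, 0.00132 and 0.00115 for r. Without adult bull 3 and young bull 5, the bulls with least and most SPARC, r was 0.566, 0.606 and 0.660. After each age mean was removed, r was 0.567, 0.629 and 0.651, against 0.942, 0.929 and 0.961 among the collagens in the order above. The difference between these coefficients was not tested.

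Within the 8 young bulls SPARC and the collagens were not shown to be related, with r of 0.352 for COL1A1, 0.371 for COL1A2 and 0.567 for COL3A1 (exact permutation p = 0.381, 0.355 and 0.145) and rho of 0.190, 0.381 and 0.571 (exact permutation p = 0.665, 0.360 and 0.151). Among the 6 adult bulls r was 0.704, 0.798 and 0.710 (exact permutation p = 0.1, 0.0472 and 0.0944) and rho 0.829, 1.00 and 0.886 (exact permutation p = 0.0583, 0.00278 and 0.0333), so that SPARC and COL1A2 put the 6 adult bulls in the same order. The low young values turned on young bull 6. Without that bull, left out after its values had been seen, r among the 7 others was 0.701, 0.798 and 0.831 (exact permutation p = 0.0827, 0.0327 and 0.0208) and rho 0.607, 0.821 and 0.75 (exact permutation p = 0.167, 0.0341 and 0.0663). Its summed level of 5 genes of endothelial or mural cells was 68.5 FPKM, the highest of the 14 bulls, and its coverage of 1.09 gigabases was the lowest of the young bulls; their part in the result was not tested. Within the lineages r between SPARC and the collagens ran from 0.807 to 0.901.

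**Figure D3:**
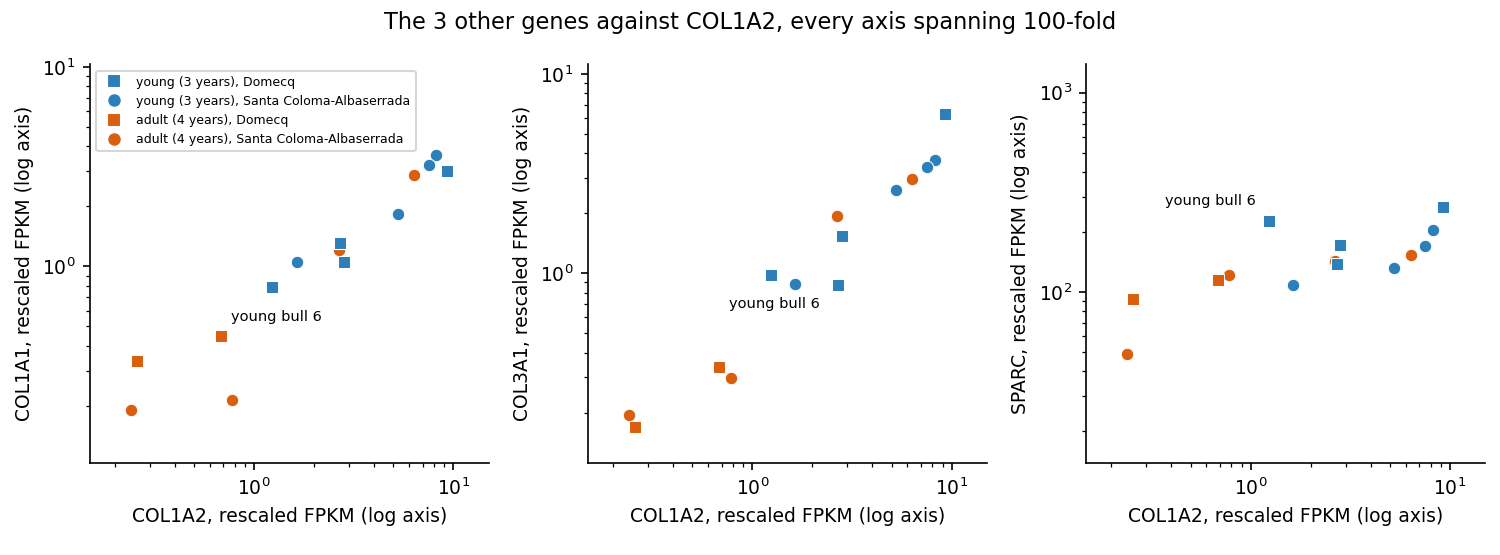
COL1A1, COL3A1 and SPARC (vertical axes) against COL1A2 (horizontal axis) in rescaled FPKM, log axes that all span 100-fold, with 1 point for each of 14 bulls. COL1A1 and COL3A1 rise steeply with COL1A2, with r of 0.963 and 0.974, while SPARC rises on a shallower slope, with r of 0.758 and young bull 6 above the other bulls of similar COL1A2.

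The amplitude differed as well. The SD within ages on the log2 scale was 0.51 for SPARC, against 1.05 for COL1A1, 1.36 for COL1A2 and 1.26 for COL3A1, which is 2.06, 2.67 and 2.47 times larger. The Pitman-Morgan comparison of paired variances, with a permutation p over 14 bulls, gave p = 0.00632, 3.10e-04 and 7.60e-04, and 0.00632, 9.30e-04 and 0.00114 after adjustment over 3 comparisons. For each log2 unit of COL1A2 the fitted level of SPARC moved by 0.28 log2 units and that of COL1A1 by 0.74. With a pseudocount of 1 FPKM, which flattens levels near or below 1, the adjusted permutation p rose to 0.499, 0.0534 and 0.15, and without adult bull 2 that for COL1A1 was 0.0716. Among the collagens, tests added afterwards gave a smaller spread for COL1A1 than for COL1A2 with an unadjusted permutation p of 0.0200 and an adjusted value of 0.0600 over 3 pairs, which became 0.0623 and 0.187 with no pseudocount, and no other pair had an adjusted permutation p below 0.175.

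The place of the 4 genes among all others was described by the same coefficient. Ordered by r over the 14 bulls, COL1A2 was number 3 and COL3A1 number 11 of 15272 genes by likeness to COL1A1, and SPARC was number 647, so that 4.24% of genes were at least as like COL1A1 as SPARC was. Seen from SPARC, COL3A1 was number 287, COL1A2 number 332 and COL1A1 number 531. Each collagen had 73 to 122 genes with r above 0.9 (0.478% to 0.799% of genes), whereas SPARC had 8 (0.0524%). With the age means removed, COL1A2 was number 7, COL3A1 number 18 and SPARC number 1250 by likeness to COL1A1. Seen from SPARC, COL3A1 was then number 585, COL1A2 number 706 and COL1A1 number 1115. Genes with r above 0.9 then numbered 47 to 94 for each collagen and 2 for SPARC. These ranks are descriptions over the same 14 libraries of both ages, and the part of cell makeup in them was not tested.

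The named genes most like each member could be drawn only from the symbols that the study's list of genes called between ages provides, which pairs 241 of 243 loci with the files. That list was made on these same bulls and holds the 4 genes themselves, so it is not independent evidence of any direction. AEBP1, a secreted collagen-binding protein, was most like COL1A1 (r = 0.975), followed by PROS1, protein S of the anticoagulant system (0.969), and GASK1A (0.962). FBLN1, the matrix glycoprotein fibulin 1, was most like COL1A2 (0.989), followed by the growth factor IGF2 (0.988) and the sulfate transporter SLC13A4 (0.979). For COL3A1 they were IGF2 (0.983), the fibril-binding proteoglycan decorin, DCN (0.982), and ALDH1A2, which makes retinoic acid (0.979). The named genes nearest SPARC were ZFP36L1, an RNA-binding protein that promotes mRNA decay (0.888), the proteoglycan biglycan, BGN (0.887), and PSAT1, an enzyme of serine synthesis (0.881). Of the 20 genes most like each collagen 15 bore a symbol from that list, and of the 20 most like SPARC 2 did. The list pairs at most 241 of the 15269 genes ranked. Since it was made on these same bulls, nothing is read from these counts.

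Other genes of the extracellular matrix were taken from a list of 43 symbols, 23 of which were paired and tested. A gene could be paired only if the study had called it between ages in these bulls, and all 23 stand in its list as lower in adults, so that their direction was fixed by the pairing. Of the 23 genes 16 were lower at an exact permutation p under 0.05, against 5.37% of all tested genes, from which nothing is read, and 0 passed the limma adjustment. Their median log2 difference was -1.05, and that over all tested genes 0.00. Their median r was 0.899 with the mean of the 3 collagens and 0.747 with SPARC. By this measure 20 genes stood nearer the collagens, and 3 stood nearer SPARC, namely BGN (0.850 with the collagens, 0.887 with SPARC), the glycoprotein tenascin C, TNC (0.763 and 0.781), and the crosslinking enzyme LOXL1 (0.828 and 0.866).

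The extremes of the matrix list were FBLN1, with r of 0.982 with the collagen mean, and COL8A1, a network-forming collagen, with 0.551 with the collagen mean and 0.357 with SPARC, which were 0.258 and -0.05 once the age means were removed. FBLN1 averaged 17.2 FPKM ± 12.5 (SD, n = 8) in young and 6.47 ± 7.65 (SD, n = 6) in adult bulls, a spread between bulls as wide as that of the collagens. COL8A1 averaged 2.44 ± 1.01 in young and 1.08 ± 0.632 in adult bulls. It had a log2 difference of -1.22 (SE 0.36, limma adjusted p = 0.369). COL8A2, the other chain of this type VIII collagen, had an r of 0.835 with the collagen mean and 0.613 with SPARC. BGN averaged 9.02 ± 2.88 in young and 4.59 ± 2.33 in adult bulls (log2 difference -1.05, SE 0.30, limma adjusted p = 0.357).

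Genes used as markers of cell types that the dissected tissue could hold were compared with these levels. They too could be paired only where the study had called them, so that their directions were fixed in the same way. That choice also bears on each r over both ages. The counts below are descriptions beside shares of 5.37% of all tested genes lower and 4.12% higher in adults at an exact permutation p under 0.05. Of 14 fibroblast genes 12 were paired and 9 tested, while the transcription factors TBX18, FOXC2 and SIX2 were listed at 0 in 1, 1 and 3 bulls. All 9 were lower in adults, 5 at an exact permutation p under 0.05 and 0 after adjustment. Their summed level was 9.08 to 98.3 FPKM in young bulls (median 42.7) and 2.56 to 53.4 in adult bulls (median 6.18). Their median r was 0.956 with the collagen mean and 0.708 with SPARC, and 9 of 9 stood nearer the collagens, from IGF2 at 0.987 to the transcription factor ZIC1 at 0.854. The part of fibroblast content in the age differences was not tested.

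Astrocyte genes stood slightly nearer SPARC, with a median r of 0.755 with SPARC and 0.725 with the collagen mean. All 6 that were paired had a higher r with SPARC than with the collagen mean, with and without removal of the age means. AQP4 had 0.825 with SPARC and 0.704 with the collagens, and MLC1, a membrane protein of astrocyte endfeet, 0.736 and 0.509. For the gap junction genes the coefficients lay close together, 0.761 and 0.758 for GJA1 and 0.847 and 0.819 for GJB6. Those of PLPP3, at 0.748 and 0.745, did so as well. HES5, a Notch target, had 0.304 and 0.151. Once the age means were removed, the coefficients were lower, with 0.723 and 0.522 for AQP4, 0.577 and 0.198 for MLC1, and -0.06 and -0.31 for HES5, whose signs turned. Their summed level was 152 to 252 FPKM in young and 80.1 to 165 in adult bulls, with 6 of 6 lower in adults at an exact permutation p under 0.05 and 0 after adjustment.

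Of 5 endothelial or mural genes 2 stood nearer SPARC and 3 nearer the collagens by r, with medians of 0.724 with SPARC and 0.739 with the collagens, a split that turned without adult bull 4, and their summed level was 20.3 to 68.5 FPKM in young and 13 to 49.5 in adult bulls. KLF2, a transcription factor of endothelium under flow, had 0.799 with SPARC and 0.739 with the collagens, whereas THBD, thrombomodulin, had 0.668 and 0.870. All 5 were lower in adults, 2 of them at an exact permutation p under 0.05 and 0 after adjustment. The 8 neuronal genes, all higher in adults and 7 of 8 at an exact permutation p under 0.05 with 0 after adjustment, had negative coefficients, with medians of -0.34 for the collagens and -0.43 for SPARC, which were -0.01 and -0.14 once the age means were removed. The differences between coefficients were not tested, and the genes of a list share the libraries and are not independent.

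**Figure D4:**
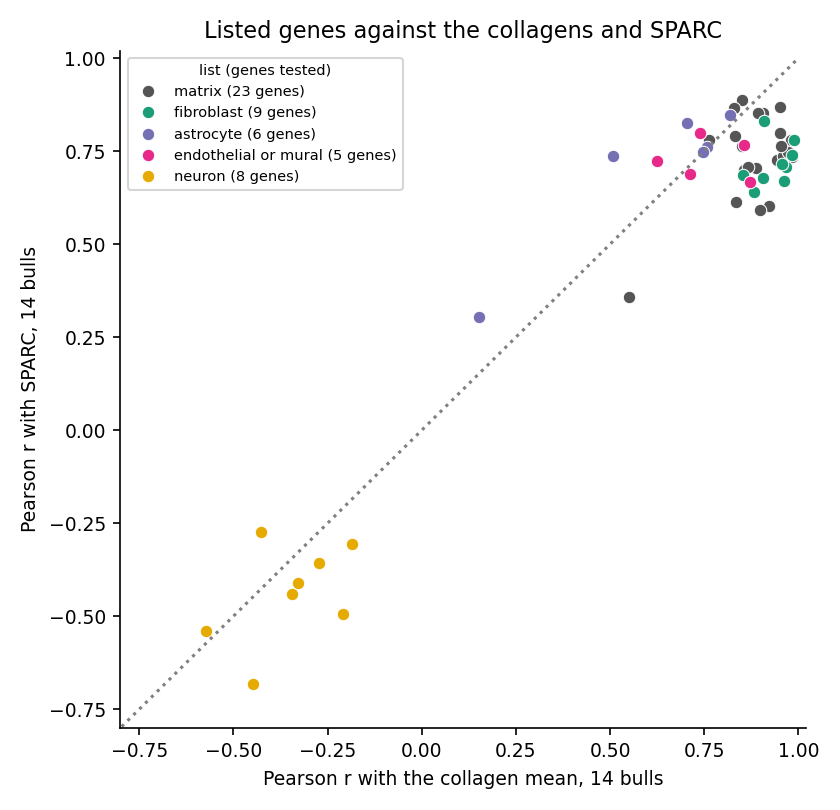
Pearson's r of each tested list gene with the mean of the 3 collagens (horizontal axis) and with SPARC (vertical axis) over 14 bulls, coloured by list, with a dotted line where both are equal. The 9 fibroblast genes lie to the right of the line, nearer the collagens, and the 6 astrocyte genes above it, nearer SPARC.

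Adult bull 4 had the lowest coverage, and the lists were therefore also described without it. The median r was then 0.953 with the collagens and 0.710 with SPARC for 10 fibroblast genes, and 0.712 and 0.755 for the 6 astrocyte genes, 6 of which still stood nearer SPARC. The endothelial or mural list turned, with 3 of 5 genes nearer SPARC and medians of 0.699 with the collagens and 0.738 with SPARC. Of the 23 matrix genes 23 were still lower in adults and 10 had an exact permutation p under 0.05, with median coefficients of 0.917 and 0.749. Across the 14 bulls, log2 coverage had an r of 0.503 with COL1A1 (permutation p = 0.0423, rho 0.420 with permutation p = 0.138), which was 0.339 after adjustment over 8 relations of the 4 genes with coverage and with the mitochondrial share of FPKM, and r was 0.250 without adult bull 4 and young bull 6. Of the other 7 relations none had a permutation p below 0.194 for r or below 0.133 for rho.

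The transcripts behind each gene sum were also compared. COL1A1 and COL3A1 are each annotated with 1 transcript. SPARC has 2 transcripts, and ENSBTAT00000019758 carried at least 99.5% of its FPKM in every bull. COL1A2 has 3 transcripts. ENSBTAT00000072738, of 4922 bases, carried 55.0% to 99.99% of its FPKM with a median of 72.4%, and ENSBTAT00000033863, which starts upstream and has 4095 bases, carried 0% to 45.0% with a median of 27.6% and was listed at 0 in 2 of 14 bulls. The median share of ENSBTAT00000033863 was 29.5% in young and 20.6% in adult bulls, a difference that was not tested. The third, ENSBTAT00000072710, reached at most 0.104%. The split between transcripts is an estimate by Cufflinks, and the COL1A2 sum used above does not depend on which of them a read was given to except through their lengths.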

How the data were processed

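PFC RNA-seq libraries of 16 Lidia bulls (stranded mRNA kit, pairs of 100-base reads) were mapped by the authors with STAR 2.7.3a to ARS-UCD1.2 and quantified with Cufflinks 2.2.1 on the Ensembl annotation. The deposited tables hold FPKM and coverage for 43984 transcripts and no counts. The authors' FPKM scaling is per library, with none between bulls. FPKM were summed per gene, rescaled by the median ratio over genes above 0 in all 14 bulls with values, and transformed as log2(FPKM + 0.1). Ratios used no pseudocount. Over the 15273 genes kept by this filter, ages were compared with limma 3.58.1 (R 4.3.3), with a trend and Benjamini-Hochberg adjustment (threshold 0.05). Single values were tested by exact permutation, and correlations over 14 bulls by 100000 random pairings (Python 3.11.15, numpy 2.4.6, pandas 2.3.3). Both tests were tested on simulated data. Read pairs were approximated as coverage times length over 200 bases. Age groups are from the labels, and lineage, from the study's table, served only for within-lineage values and as a covariate. Symbols come from the study's list. The rule named the 4 members, the 3 listed genes most like COL1A1 and SPARC, list genes most and least correlated with the collagens or SPARC, and those at 0 in a bull. The other genes described were chosen after their values were seen. The members and lists were chosen with earlier results of these data known.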

Additional observations from a re-analysis of the deposited data

How the results depend on the processing

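Each age difference stayed negative under all alternatives. The exact permutation p passed 0.05 for COL3A1 with a pseudocount of 1 (log2 difference -0.85, where COL1A1 had -0.73 and COL1A2 -1.17), for SPARC with FPKM as deposited (-0.76) and for differences in linear FPKM of -1.11 for COL1A1, -3.00 for COL1A2 and -1.55 for COL3A1. With 1 bull left out, the log2 difference ranged from -1.90 to -1.23 for COL1A1, from -2.41 to -1.56 for COL1A2, from -2.10 to -1.40 for COL3A1 and from -0.80 to -0.47 for SPARC. In the same way the log2 ratio difference ranged from 0.71 to 1.39 for SPARC/COL1A1, from 1.06 to 1.84 for SPARC/COL1A2 and from 0.97 to 1.65 for SPARC/COL3A1. With a pseudocount of 1 they fell to 0.04, 0.49 and 0.17. All 6 age differences of ratios kept their direction, and the 3 with SPARC passed the threshold without adult bull 2 and in no other case. Over both ages, the 6 correlations kept their direction and their side of the threshold under the other scalings, with age means removed and with 1 bull left out, with r between SPARC and the collagens of 0.567 to 0.862 and among the collagens of 0.929 to 0.983. The Pitman-Morgan coefficient of SPARC against COL1A1, COL1A2 and COL3A1 was -0.20, -0.62 and -0.46 with a pseudocount of 1, and with 1 bull left out it ranged from -0.79 to -0.52, -0.88 to -0.74 and -0.89 to -0.73. The count of genes called by limma was 173 with array weights, 1 when genes above 0 in any bull were tested, and 0 to 1 with 1 bull left out. The causes of these changes were not tested. The alternatives for the spread, the ratio with a pseudocount of 0.1, the sign-flip tests and the sets without young bull 6 or adult bull 4 were chosen after seeing the data. No paired analysis was possible because each bull is a different animal, the labels give no replicate number that joins a young to an adult bull, and the numbers used here only name the bulls of each age in accession order. The 3.69 read pairs of COL1A1 in adult bull 4 limit that value, whose Cufflinks interval after rescaling was 0.0520 to 0.374 FPKM.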
